A study of Mus musculus with 48 samples.

Results

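Somatic cells of the adult ovary were compared with fetal gonadal somatic cells labelled as female, from the stage at which germ cells enter meiosis. The fetal libraries also carried Y-linked RNA, described below. The comparison used 4 of the 48 samples of the series, chosen by their labels: 2 bulk RNA-seq libraries of ovary somatic cells from mice 6 weeks old (P6w) and 2 of gonadal somatic cells from female gonads at E12.5, counted in embryonic days. Libraries of E13.5 and E16.5 gonadal somatic cells, 2 each, were counted in the same table and entered the fit to share the estimate of spread. All were of the strain C57BL/6, with no transgene or treatment named. The E12.5 cells were what passed through a magnetic column after germ cells had been held back with an antibody to SSEA1, a surface sugar of fetal germ cells. The way the P6w cells were isolated, the number of animals pooled and the phase of the oestrous cycle were not given in the sources used here. The study used both kinds of cells as partners for primordial germ cells in aggregates, and the comparison asks in which genes an adult somatic environment differs from the fetal one.

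In the fetal ovary, supporting cells that will become granulosa cells lie beside interstitial progenitors, the surface epithelium, endothelial cells and the adjoining mesonephros, and Wnt4, Rspo1 and Foxl2 direct them along the female path. In the adult ovary, granulosa cells surround each oocyte, respond to follicle-stimulating hormone (FSH), release inhibins and activins and turn androgens into oestrogens. Theca cells around the follicle make the androgens, and luteal cells, which form after ovulation, make progesterone.

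The counts summed to 19518037 and 18060579 in E12.5 replicates 1 and 2, and to 12799313 and 12694769 in P6w replicates 1 and 2. Levels are given as CPM, counts scaled to a common library size after TMM normalisation, in the order replicate 1 and replicate 2. A fold change is the log2 fold change of P6w over E12.5 from edgeR. The value after ± is its size divided by the square root of the F statistic of the edgeR test. It stands in for a standard error, which that test does not give, and is only approximate for large changes from few counts. A floor of 3 counts equals 0.139 and 0.148 CPM in the E12.5 libraries and 0.245 and 0.25 CPM in the P6w libraries. The labels name replicates but not whether they came from separate animals. The adjusted p values rest on a spread between replicates that was estimated over the 8 libraries of the fit and may be technical. By the labels both E12.5 libraries were sequenced on lane 5 and both P6w libraries on lane 1, so that lane and age cannot be told apart within this comparison. The 2 E16.5 libraries ran on lanes 5 and 1, and the difference between them, replicate 2 minus replicate 1, is given below for some groups of genes. In bulk RNA, fewer cells of a type and less RNA per cell cannot be told apart.

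The markers of the labelled tissue were checked first. Over all tested genes 25.4% were called higher at P6w and 27.5% lower by edgeR, and counts of called markers stand beside these shares. The most abundant gene of a list is the one with the highest CPM, which takes no account of exon length. All 6 granulosa markers were called higher at P6w, and they summed to 30310 and 31060 CPM against 245.5 and 240.2 CPM at E12.5, with Inha the most abundant. Foxl2, the transcription factor that maintains granulosa identity, was detected in every library, at 5.79 and 6.62 CPM at E12.5 and 20.3 and 22.3 CPM at P6w. Germ cells were scarce in the E12.5 libraries, where 7 fetal germ cell markers summed to 11.1 and 10.0 CPM, against 8.91 and 8.57 CPM at P6w, and 2 of them were called lower. Oocyte RNA was present in the P6w libraries although they are labelled as somatic. The 10 oocyte markers, of which 9 were higher at P6w and 1 lower (5 and 0 with a lane term), summed to 156.6 and 62.01 CPM there against 6.95 and 6.62 CPM at E12.5, and Zp3, a protein of the egg coat and the most abundant of them at P6w, stood at 56.1 and 21.5 CPM against 0 and 0.0988 CPM, a difference not called with a lane term (edgeR adjusted p = 0.0827). P6w replicate 1 held more of this RNA than replicate 2. Of these markers 5 (Zp1, Bmp15, Figla, Nlrp5 and Oosp1) had no count in either E12.5 library.

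Blood RNA was higher in the E12.5 libraries than at P6w, as it was in the other fetal libraries. Erythroid markers summed to 35270 and 32640 CPM at E13.5 and to 15310 and 10810 CPM at E16.5. All 11 erythroid markers were called lower at P6w, and their sum was 15760 and 14370 CPM at E12.5 against 268.6 and 298.4 CPM at P6w, with the embryonic globin Hbb-y the most abundant at E12.5, Hba-a1 at P6w (88.3 and 106 CPM), and Hba-x and Hbb-bh1 at 0 in both P6w libraries. All 11 endothelial markers were lower at P6w (summed 476.5 and 484.6 CPM against 113.6 and 122.6 CPM, most abundant Egfl7), and Kdr, the receptor for VEGF, fell from 81.3 and 79.2 CPM to 5.88 and 7.16 CPM. Of 11 macrophage markers 8 were higher, with sums of 78.89 and 84.24 CPM at E12.5 and 279.4 and 293.8 CPM at P6w and Lyz2 the most abundant at P6w. Stromal fibroblast markers summed to 529 and 577.4 CPM against 253.2 and 279.5 CPM (2 of 8 higher, 5 lower), mesothelial markers to 576.8 and 567.3 against 219.4 and 253.4 CPM (1 higher and 6 lower of 8), and smooth muscle and pericyte markers to 227.7 and 233.5 against 362.3 and 397.3 CPM (2 higher and 5 lower of 9, with Acta2 the most abundant). Lymphocyte markers summed to 13.97 and 13.73 CPM at P6w (3 of 4 tested higher), mast cell markers to 4.17 and 3.83 CPM (2 of 4 higher), neutrophil markers to 4.82 and 2.91 CPM (2 of 5 lower) and adipocyte markers to 6.05 and 3.41 CPM (1 of 3 lower). Markers of liver summed to 5.10 and 3.51 CPM at E12.5 and 122.6 and 134.1 CPM at P6w, almost all of it from Apoa1, while the hepatocyte genes Alb, Ttr and Serpina1b had no count at P6w (1 of 8 higher, 3 lower, or 1 lower with a lane term). Serpina1b was not called by DESeq2 (adjusted p = 0.0607). Its call was also lost without E12.5 replicate 2, P6w replicate 1 or P6w replicate 2. Nerve and glia markers summed to 17.65 and 18.73 CPM at E12.5 and 92.07 and 89.31 CPM at P6w (2 of 6 higher, 3 lower), while the neural crest factor Sox10 stood at 4.68 and 5.04 CPM at E12.5 and 0 and 0.0832 CPM at P6w. Oviduct markers summed to 35.3 and 42.14 against 26.31 and 24.72 CPM (2 of 6 higher, 1 lower), with Pax8 the most abundant at E12.5 and Tppp3 at P6w (14.3 and 13.3 CPM). All 5 fetal Leydig markers, which are steroid genes that adult ovarian cells also express, were higher (71.25 and 67.49 against 7480 and 7361 CPM), with Star the most abundant at E12.5 and Hsd3b1 at P6w. The part of these other cell types in the results below was not tested.

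**Figure D1:**
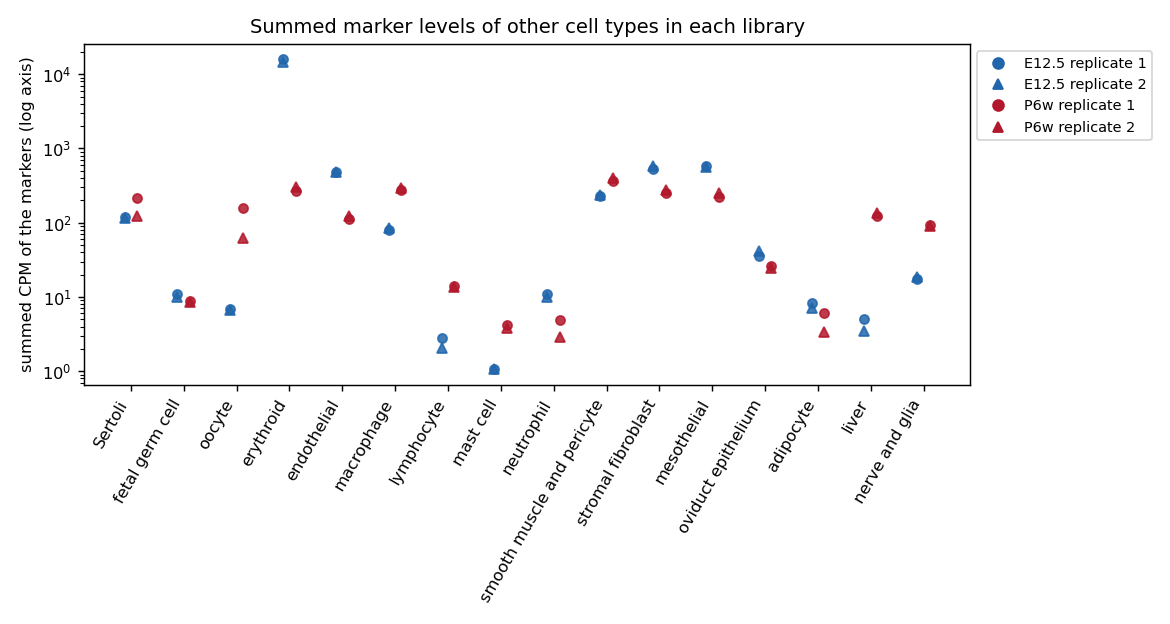
Summed CPM of the marker genes of 16 other cell types (log axis) in each of the 4 libraries. Circles are replicate 1 and triangles replicate 2, blue for E12.5 and red for P6w. Erythroid markers fell from 15760 and 14370 CPM to 268.6 and 298.4 CPM, and oocyte markers were higher in P6w replicate 1 (156.6 CPM) than in replicate 2 (62.01 CPM).

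The E12.5 libraries also carried RNA from the Y chromosome although their label says female gonads. Ddx3y, an RNA helicase gene on the Y, had 97 and 103 counts at E12.5 and 0 in both P6w libraries, and the 4 Y-linked genes summed to 9.5 and 8.4 CPM. They summed to 0.254 and 0.228 CPM at E13.5 and to 0 and 0.0612 CPM at E16.5. Sox9, which drives Sertoli cells in the testis, stood at 34.9 and 35.3 CPM at E12.5 and at 1.47 and 1.33 CPM at P6w, but also at 124 and 129 CPM at E16.5, where Y-linked RNA was near 0. Both E12.5 libraries held Y-linked RNA, so neither can be left out for it. Against the E16.5 libraries, P6w was higher by 7.45 in Inha and 5.55 in Hsd3b1 and lower by 4.88 in Lhx9 and 3.13 in Wt1 on the log2 scale, each called by edgeR, at another fetal stage and so not a measure of the same difference. Of 8 Sertoli markers 3 were higher and 5 lower at P6w, and their sums (120.7 and 115.1 CPM against 215 and 124.8 CPM) were led by Ptgds at E12.5 (40.8 and 38.8 CPM) and at P6w by Amh, which adult granulosa cells also express.

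Across the 16398 genes tested, 8673 (52.9%) passed the edgeR test, with a threshold of 0.05 after adjustment for multiple tests by Benjamini and Hochberg (BH), and were called. Of these 4162 were higher at P6w (25.4% of the tested genes) and 4511 lower (27.5%). The median log2 fold change of all tested genes was -0.04. With scaling to library totals alone, without TMM, that median was -0.27 and the split moved to 3064 higher and 5978 lower, so that small fold changes depend on the scaling. A change of at least 2-fold was met by 2253 genes higher (13.7%) and 2671 genes lower (16.3%). Of the called genes 427 had a fitted rise of at least 16-fold and 548 a fitted fall of that size. These hold genes without a count in one group, whose fitted fold is no bound. With so many genes called, the counts of members in each group below are to be read against these shares, which the plot of list shares draws beside every list.

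**Figure D2:**
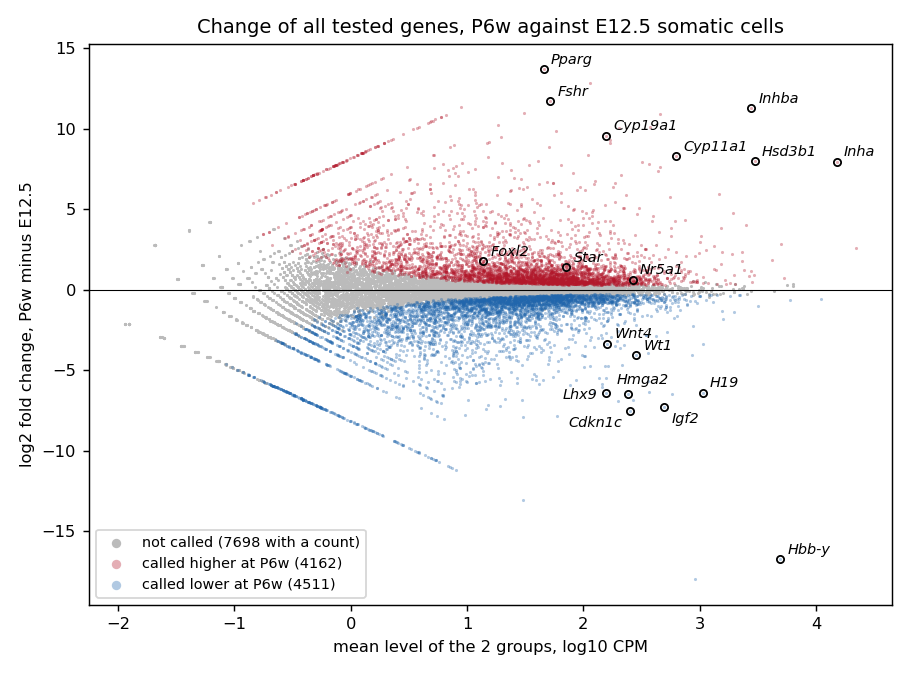
Log2 fold change of P6w over E12.5 (vertical axis) against the mean level of both groups in log10 CPM (horizontal axis). Each dot is a tested gene, red where called higher at P6w (4162), blue where called lower (4511) and grey where not called (7698 with a count in these libraries, the other 27 having none). Inhibin and steroid genes lie at the upper right and the embryonic globin Hbb-y at the lower right.

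The genes of granulosa cells had the highest median of the 33 gene lists. All 15 were called higher, with a median log2 fold change of 7.95 against -0.04 over all tested genes. The difference between the 2 E16.5 libraries, which ran on different lanes, had a median of 0.255 on the log2 scale for this list. Inha, the alpha subunit shared by inhibins A and B, had 118 and 122 CPM at E12.5 and 29423 and 30235 CPM at P6w, a log2 fold change of 7.95 ± 0.27 (edgeR adjusted p = 4.88e-12). It took 2.81% and 2.86% of all counts in the P6w libraries. Inhba, whose product forms activin A and the beta chain of inhibin A, stood at 2.50 and 1.98 CPM against 5842 and 5233 CPM (11.26 ± 0.20). Inhbb, the other beta subunit, had 37.2 and 37.8 CPM against 730 and 736 CPM (4.29 ± 0.14). The replicates of each group lay close together and the groups did not overlap for any of the 3 subunits, as was so for 80.4% of all tested genes. Levels of different genes can be compared only per length of exon, and on that scale Inha reached 20223 CPM per kilobase at P6w, Inhba 867 and Hsd3b1, a steroid enzyme gene described below, 3176.

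Some receptors and regulators of granulosa cells, Fshr among them, were near the floor at E12.5, while others such as Lhcgr stood above it. Fshr, the FSH receptor, had 0 and 1 counts at E12.5 and 1210 and 1308 at P6w (98.9 and 109 CPM), a ratio of 4341 with a 95% counting interval from 778 to 171530. With a lane term Fshr kept its direction (fitted log2 fold change 7.51) but was not called (edgeR adjusted p = 0.993). Nr5a2, a nuclear receptor required in granulosa cells for ovulation, rose from 0.649 and 0.395 CPM to 348 and 323 CPM (9.30 ± 0.21), and Esr2, the main oestrogen receptor of granulosa cells, from 0.417 and 0.939 to 229 and 209 CPM (8.34 ± 0.25). Lhcgr, the receptor for luteinizing hormone, stood at 4.22 and 3.51 against 139 and 147 CPM. Grem1, a secreted antagonist of BMPs, had 1 count over both E12.5 libraries and 226 CPM in each P6w library, a ratio of 9447 with an interval from 1695 to 373220. Structural and secreted products rose as well, with the gap junction protein gene Gja1 at 132 and 135 against 3532 and 3844 CPM and the protease inhibitor gene Serpine2 at 44.4 and 48.6 against 2870 and 2928 CPM. The members with an early role in the ovary moved least. Foxl2 rose by a log2 fold change of 1.78 ± 0.20 and Fst, which binds activin, by 1.53 ± 0.12, from 110 and 103 CPM to 298 and 319 CPM. Amh, made by granulosa cells of growing follicles, differed between the P6w libraries (157 and 68.0 CPM) in the same order as the oocyte markers, and stood at 10.7 and 7.86 CPM at E12.5. Its log2 fold change of 3.60 was 1.75 with a lane term, not called.

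**Figure D3:**
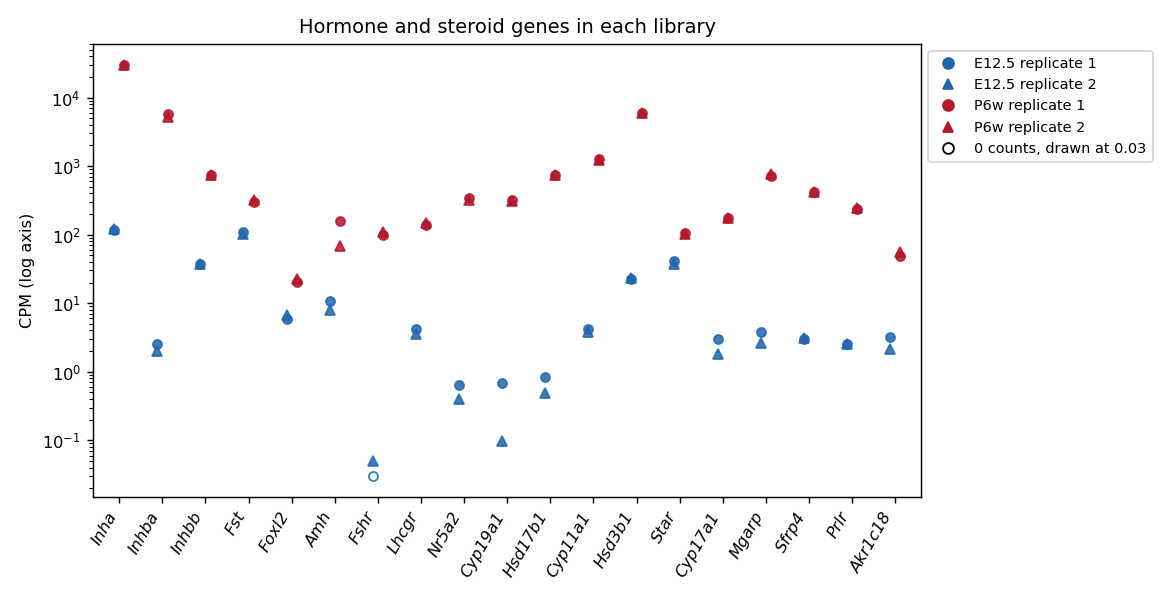
CPM of 19 hormone and steroid genes (log axis) in each library, blue for E12.5 and red for P6w, circles for replicate 1 and triangles for replicate 2, with an open symbol at 0.03 for 0 counts. For each gene both P6w libraries lie above both E12.5 libraries, by the widest margin for Inhba and Fshr and by the least for Star, Fst and Foxl2.

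Most enzymes of steroid hormone synthesis rose, by unequal amounts. Of 17 enzymes and partners 14 were tested, and 11 were called higher and 1 lower, with a median log2 fold change of 2.12. Cyp11a1, which cleaves the side chain of cholesterol to give pregnenolone, had 4.17 and 3.75 CPM at E12.5 against 1289 and 1211 CPM at P6w (8.30 ± 0.17, edgeR adjusted p = 4.91e-14). Hsd3b1, which carries the product on to progesterone, stood at 22.7 and 23.6 against 5910 and 5872 CPM (7.99 ± 0.16, edgeR adjusted p = 4.17e-14). Cyp17a1, the androgen-forming enzyme of theca cells, rose from 3.01 and 1.83 to 175 and 173 CPM (6.16 ± 0.24). Aromatase, Cyp19a1, which makes oestrogens, rose from 0.695 and 0.0988 to 317 and 305 CPM (9.56 ± 0.34), and Hsd17b1, which makes oestradiol from oestrone, from 0.834 and 0.494 to 753 and 738 CPM (10.11 ± 0.22). Star, which delivers cholesterol to the inner mitochondrial membrane, moved less than these enzymes, from 40.9 and 37.8 CPM to 105 and 102 CPM (1.39 ± 0.19). The electron donors Fdx1 and Fdxr rose by 2.30 ± 0.23 and 1.45 ± 0.14, while Por, which supplies electrons to Cyp17a1 and Cyp19a1, had 124 and 98.3 CPM against 102 and 90.2 CPM (adjusted p = 0.23, edgeR). Hsd17b3, the testicular enzyme for testosterone, was the member called lower (1.90 and 2.12 against 0.654 and 0.333 CPM), and its call was lost when any one library was left out. Hsd3b6, a close copy of Hsd3b1, had 62.0 and 65.8 CPM at E12.5 but 52.3 and 2.91 CPM in the P6w libraries, where Hsd3b1 was alike (5910 and 5872 CPM). The cause of this gap, and how the counting shared reads between the 2 copies, was not tested.

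Hsd3b1 was the one called steroid enzyme whose promoter held one of the letter runs searched, and its upstream sequence is shown for that reason. The run AAGGTCA is the core bound by steroidogenic factor 1. The cAMP response element gives the run TGACGTC, and GATA factors bind the run AGATAA. Each was read on either strand of the 250 bases before each RefSeq start (GRCm38.p6), and none of the runs contains another. Over all 32851 promoters they occurred, in that order, in 4.08%, 2.78% and 9.99%. Of the 12 called steroid enzymes 9 had a promoter in the RefSeq table, with 12 promoters in all, of which 1 held AGATAA (8.33%) and none the other runs. Among 12 promoters of 10 called cholesterol synthesis genes, 2 held AAGGTCA (16.7%, Dhcr7 and Hmgcs1), and the 3 promoters of the inhibin subunit genes held none of the runs. The Hsd3b1 sequence lies at chr3:98859795-98860044 on the minus strand, and the capitals mark TTATCT, the reverse complement of AGATAA, which begins 134 bases before the start.
Hsd3b1: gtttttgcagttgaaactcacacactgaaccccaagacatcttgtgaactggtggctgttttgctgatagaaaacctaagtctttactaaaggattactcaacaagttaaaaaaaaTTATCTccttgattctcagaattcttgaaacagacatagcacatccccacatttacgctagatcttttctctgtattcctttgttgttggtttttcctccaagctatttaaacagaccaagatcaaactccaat
A match of these letters is a description of the sequence only.

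Genes of theca and luteal cells rose too, from lists that share Lhcgr and steroid enzymes with the lists above. All 4 theca genes were higher, among them Mgarp, a mitochondrial protein of steroid-making cells (3.80 and 2.67 against 717 and 755 CPM, 7.82 ± 0.20), whereas Insl3, the hormone of theca and Leydig cells, remained low (0.417 and 0.494 against 2.21 and 2.16 CPM) and was not called with a lane term (2.41). All 7 luteal genes were higher, with a median of 4.59. Sfrp4, a secreted Wnt-binding protein, had 2.96 and 3.06 CPM at E12.5 and 417 CPM in each P6w library, Prlr, the prolactin receptor, 2.55 and 2.57 against 239 and 244 CPM, and Akr1c18, which inactivates progesterone at the end of the corpus luteum's life, 3.20 and 2.17 against 48.9 and 55.5 CPM.

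Among 19 hormone receptors 13 were called higher and none lower (1 lower with library totals alone and 1 with a lane term), with a median log2 fold change of 1.62. Besides Fshr, Esr2, Prlr and Lhcgr, Ptgfr, the receptor for the luteolytic prostaglandin, rose from 1.90 and 1.19 to 36.8 and 38.2 CPM, and Igf1r from 63.2 and 68.2 to 209 and 196 CPM. Amhr2, the receptor for anti-Müllerian hormone, was already at 681 and 691 CPM at E12.5 and stood at 609 and 562 CPM at P6w (-0.23 ± 0.14, edgeR adjusted p = 0.19). Esr1 had 13.4 and 10.2 against 23.1 and 30.8 CPM (1.19 ± 0.21). The progesterone receptor gene Pgr, which granulosa cells switch on for ovulation, was below 0.5 CPM in all 4 libraries.

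Genes of ovulation and cumulus expansion did not share the rise. Of 12 tested, 6 were called lower and none higher, with a median of -0.98, or -0.68 with Il6, which had 0 counts at P6w, set to its bound. Ereg, an EGF-like ligand that relays the ovulatory signal, had 30.2 and 28.1 CPM at E12.5 and 0.0817 and 0.25 CPM at P6w (-7.41 ± 0.37). Edn2, a vasoconstrictor peptide gene of the ovulating follicle, fell from 46.8 and 54.6 to 5.72 and 7.16 CPM, and Ptgs1 from 9.36 and 11.4 to 4.17 and 6.24 CPM, the last not called without E12.5 replicate 2 or without P6w replicate 1. Has2, Areg and Ptgs2 were at or below 1.19 CPM in every library. Ptgs2 was among the 6 called lower, but it was not called with a lane term (-1.90). The call of Ptgs2 was also lost without E12.5 replicate 2 (log2 fold change -1.85), P6w replicate 1 (-2.26) or P6w replicate 2 (-3.23).

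Of the regulators of steroid synthesis, 3 of 9 were higher and 3 lower (33.3% each, beside 25.4% and 27.5% of all tested genes). Apart from Nr5a2, Cebpa rose from 2.36 and 3.31 to 32.8 and 34.6 CPM (3.57 ± 0.25) and Nr5a1, which encodes steroidogenic factor 1, from 196 and 219 to 347 and 295 CPM (0.63 ± 0.15), a call that was lost without P6w replicate 1 (0.50) and with a lane term (0.11). Gata6 (120 and 111 against 63.0 and 72.5 CPM) and Gata4 (183 and 179 against 120 and 119 CPM) fell by less than 2-fold, as did Creb1, a mediator of cAMP signals (-0.47 ± 0.14), whose call was lost when any one library was left out. The call of Gata6 was lost with a lane term (-0.42). Nr0b1, a repressor of Nr5a1 targets, had 36.2 and 40.0 against 34.6 and 32.2 CPM (adjusted p = 0.28, edgeR).

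Cholesterol is the substrate of steroids. Of 20 enzymes of its synthesis 11 were higher and 2 lower, with a median log2 fold change of 0.49. Between the E16.5 libraries on different lanes, the median difference over these enzymes was 0.322 on the log2 scale, in the same direction. The largest rises were in the late enzymes Sc5d (19.6 and 17.8 against 67.2 and 82.5 CPM, 2.00 ± 0.16) and Hsd17b7 (1.56 ± 0.17) and in Fdps, which makes farnesyl pyrophosphate (155 and 165 against 437 and 448 CPM, 1.47 ± 0.13). Hmgcs1, an early enzyme of the pathway, fell from 180 and 191 to 93.5 and 115 CPM (-0.83 ± 0.14) and Acat2 fell by 0.58 ± 0.16, a call lost with a lane term (-0.22). Among 19 genes of cholesterol uptake, storage and sensing, 11 were higher and 2 lower (median 0.48). Scarb1, the receptor that takes up cholesterol from HDL, rose from 83.5 and 71.6 to 571 and 512 CPM (2.80 ± 0.13), Scap, the sterol sensor that escorts SREBP, from 93.7 and 96.7 to 512 and 450 CPM (2.34 ± 0.12), and the lipoprotein receptor gene Lrp8 from 1.48 and 1.04 to 12.6 and 13.7 CPM, while the lipid droplet protein gene Plin2 fell from 280 and 272 CPM to 177 CPM in both and the sterol carrier gene Stard4 from 34.5 and 35.5 to 21.3 and 21.4 CPM.

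The transcription factors of the fetal gonad moved the other way. Of 14 tested, 12 were lower and 1, Nr5a1, was higher, with a median log2 fold change of -1.64, beside 27.5% of all genes called lower. Lhx9, needed to form the gonad, fell from 312 and 305 to 3.59 and 3.58 CPM (-6.42 ± 0.16, edgeR adjusted p = 2.62e-13), Wt1 from 532 and 537 to 32.2 and 32.3 CPM (-4.05 ± 0.15) and Emx2 from 94.2 and 95.6 to 8.17 and 7.82 CPM (-3.57 ± 0.18). Nr2f1, an orphan nuclear receptor of mesenchyme, fell from 17.6 and 15.0 to 0.490 and 0.832 CPM, and its relative Nr2f2, found in interstitial progenitors, from 205 and 196 to 65.5 and 74.2 CPM. No library of one group overlapped the other for these 5 genes, as was so for 80.4% of all tested genes. Among 11 genes of ovarian determination, Foxl2 and Fst were higher and 7 were lower, including Rspo1 (61.8 and 59.6 against 6.13 and 4.16 CPM, -3.56 ± 0.18), Wnt4 (307 and 275 against 28.3 and 28.5 CPM, -3.36 ± 0.13) and Irx3 (15.4 and 14.8 against 2.78 and 2.75 CPM).

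A group of fetal growth regulators linked to Lin28 and let-7 fell together. Lin28 proteins block the maturation of let-7 microRNAs in early cells, and let-7 represses mRNAs that carry matching sites in the 3′ untranslated region (UTR). Of the 12 genes 10 were called lower and none higher (median -1.89). Hmga2, an architectural chromatin protein, fell from 491 and 456 to 4.58 and 5.83 CPM (-6.51 ± 0.18, edgeR adjusted p = 7.81e-13). The RNA-binding protein genes Igf2bp3 (150 and 151 against 2.21 and 2.75 CPM, -5.93 ± 0.18) and Igf2bp2 (82.5 and 94.6 against 1.14 and 2.50 CPM, -5.60 ± 0.24) fell alike, and Igf2bp1 fell from 270 and 302 CPM to 1.14 and 7.41 CPM, with a wider gap between the P6w libraries (-6.07 ± 0.38). Lin28b had 3.80 and 3.26 CPM at E12.5 and 2 counts over both P6w libraries, a ratio of 42.9 with a 95% counting interval from 11.7 to 358. Lin28a (1.39 and 1.19 against 0.408 and 1.25 CPM) and Nr6a1 were the members not called.

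The let-7 sequences are shown because the sites in these mRNAs are read through them. Libraries of poly(A) RNA do not measure mature microRNAs, so that let-7 itself has no value here, and this look at sequence was added after the values had been seen. In RefSeq (GRCm38.p6), 9 mature let-7 forms share bases 2 to 8, the seed, in capitals below, while let-7j has another seed. The copies printed lie at chr13:48538239-48538260 (let-7a) and chr13:48536078-48536099 (let-7d) on the minus strand and at chr9:106178846-106178867 (let-7g) on the plus strand.
let-7a-5p: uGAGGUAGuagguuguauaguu
let-7d-5p: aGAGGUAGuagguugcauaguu
let-7g-5p: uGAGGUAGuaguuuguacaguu
The seed pairs with the letters CTACCTC. In GENCODE vM21, 8.97% of 14726 tested genes with an annotated 3′ UTR held these letters in it at least once in the coding transcript chosen, and 0.183% held them 3 times or more. Of the 12 list members 10 held them, with 8 matches in Nr6a1, 4 each in Hmga2, Igf2bp1, Lin28b and Trim71, and none in Mycn and Dnmt3b. The list was named for let-7 targets, so such matches are part of its choice, and its UTRs were long (median 3048 bases against 927). The first match in each of 3 members is printed below from 5′ to 3′ with the pairing letters in capitals, at chr10:120364220-120364244 for Hmga2 (58 bases after the stop codon), chr11:95961774-95961798 for Igf2bp1 and chr10:45381018-45381042 for Lin28b, all on the minus strand of GRCm38.
Hmga2 site: cgacattcaatttCTACCTCagcat
Igf2bp1 site: tgtgcgaagtaaaCTACCTCaaggt
Lin28b site: ccgggcgggaagtCTACCTCatgca
Nr6a1, with the most matches, stood at 3.89 and 4.10 CPM at E12.5 and 3.19 and 4.24 CPM at P6w, whereas Mycn and Dnmt3b, with no match, were called lower (69.0 and 69.9 against 29.9 and 29.0 CPM, and 26.1 and 23.4 against 7.43 and 7.49 CPM).

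Imprinted genes, expressed from one parental allele and known for their part in fetal growth, showed the lowest median of the 33 lists, -3.80, or -3.52 with Magel2, which had 0 counts at P6w, set to its bound. Of 20 members 17 were lower and 1 higher. Igf2, the fetal growth factor, fell from 965 and 988 to 3.84 and 8.91 CPM (-7.26 ± 0.26, edgeR adjusted p = 7.83e-12). H19, its noncoding neighbour, fell from 2076 and 2105 to 19 and 30.6 CPM (-6.40 ± 0.20), and Cdkn1c, a cell cycle inhibitor, from 538 and 466 to 2.04 and 3.33 CPM (-7.54 ± 0.22). Peg3 fell from 1148 and 1124 to 8.99 and 16.1 CPM, Mest from 744 and 715 to 6.94 and 10.9 CPM and Zim1 from 41.2 and 34.7 to 0.0817 and 0.416 CPM. In each of the 6 genes just named P6w replicate 2 was above replicate 1, and both were far below E12.5. The fall was not general to the list, as Meg3 (593 and 643 against 459 and 356 CPM) and Nnat (352 and 353 against 225 and 227 CPM) fell by less than 2-fold, Snrpn and Plagl1 were not called and Sgce had 41.5 and 45.3 against 61.0 and 69.0 CPM (0.58 ± 0.13). Between the 2 E16.5 libraries on different lanes, the median difference over the list was -0.177 on the log2 scale.

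**Figure D4:**
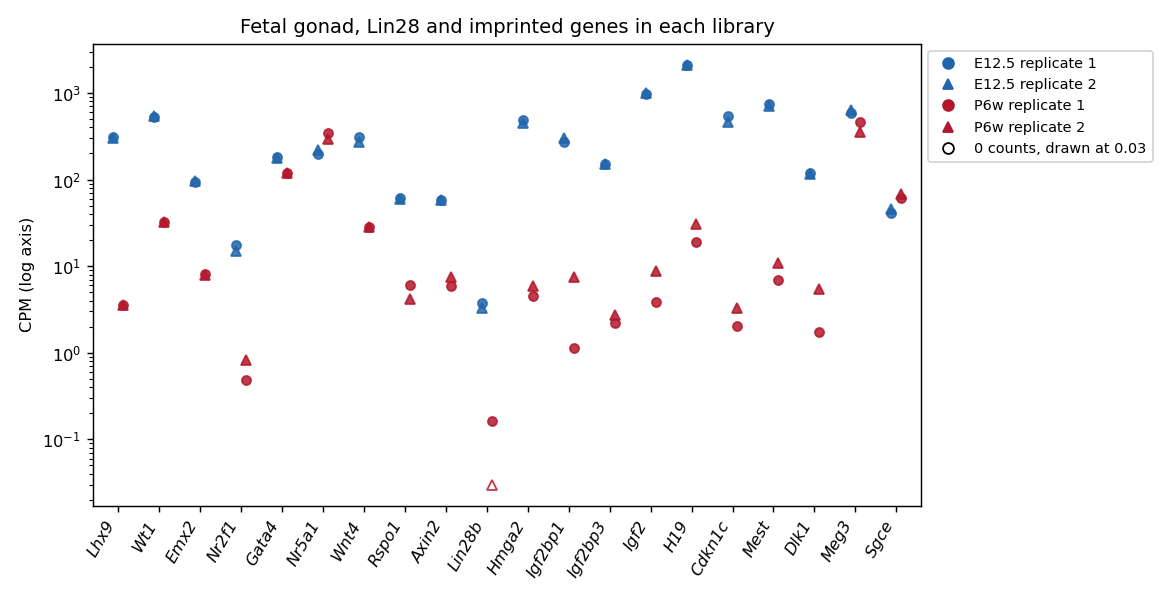
CPM of 20 fetal gonad, Wnt, Lin28 and imprinted genes (log axis) in each library, blue for E12.5 and red for P6w, circles for replicate 1 and triangles for replicate 2, with an open symbol at 0.03 for 0 counts. All but Nr5a1 and Sgce were lower at P6w, by the widest margins for Cdkn1c and Igf2.

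The insulin-like growth factor system changed its makeup, with 7 of 15 members higher and 7 lower. Against the fall of Igf2, Igf1 rose from 83.0 and 82.0 to 170 and 198 CPM (1.16 ± 0.13), its receptor Igf1r by 1.62 ± 0.12 and the adaptor Irs1 by 1.5 ± 0.15. The binding protein genes divided. Igfbp7 rose from 4.96 and 5.14 to 28.5 and 32.7 CPM, whereas Igfbp4 fell from 248 and 263 to 29.2 and 35 CPM and Igfbp3 from 9.96 and 8.40 to 0.327 and 0.749 CPM.

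In the Wnt pathway more ligands, receptors and targets were lower at P6w than were higher. Among 13 tested ligands 7 were lower and 2 higher, among 17 receptors 7 lower and 2 higher, and among 8 targets 6 lower and 1 higher. Wnt6 fell from 96.7 and 81.9 to 9.97 and 6.91 CPM (-3.40 ± 0.17) and Wnt5a from 33.9 and 35.9 to 3.76 and 4.58 CPM (-3.06 ± 0.19), besides Wnt4. Wnt10b was the exception among ligands above 5 CPM, with 1 count at E12.5 and 11.8 and 8.91 CPM at P6w, a ratio of 434 with a 95% counting interval from 77.3 to 17227. The R-spondin receptor gene Lgr5 fell from 55.4 and 57.2 to 10.2 and 13.48 CPM, the receptors Ror2 and Fzd1 fell by 2.17 ± 0.28 and 1.71 ± 0.32, the co-receptor Lrp5 rose by 0.94 ± 0.21 (not called with a lane term, 0.82), and Lgr6 rose from 3.29 and 2.37 to 22.7 and 21.0 CPM. Axin2, the standard readout of canonical Wnt signalling, fell from 57.9 and 58.0 to 5.96 and 7.49 CPM (-3.11 ± 0.25), and Lef1 from 36.5 and 39.5 to 0.327 and 0.916 CPM (-5.93 ± 0.29). The target genes Sp5 (-5.06 ± 0.47) and Nkd1 (-3.20 ± 0.18) fell with them. Tcf7 rose (10.6 and 10.5 against 28.4 and 27.2 CPM, 1.40 ± 0.18). Secreted modulators split, with 8 of 13 lower (5 with a lane term), among them Sfrp1 (246 and 226 against 23.7 and 35 CPM) and Sfrp2 (-1.60 ± 0.27), and 4 higher, with Sfrp4 and Frzb (1.34 and 0.988 against 22.7 and 17.1 CPM) leading and Dkk3 next to them (2.00 ± 0.23).

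The Hedgehog ligand genes Ihh and Dhh rose, while other members of the pathway fell or were not called. Ihh, made by adult granulosa cells, rose from 0.0926 and 0.543 to 76.0 and 87.1 CPM (8.0 ± 0.46) and Dhh from 6.02 and 5.43 to 20.9 and 19.4 CPM (1.81 ± 0.24), the 2 members called higher of 14. Of the others 7 were lower, including the transcription factor Gli3 (46.2 and 48.3 against 2.86 and 4.58 CPM) and the co-receptor Gas1 (127 and 132 against 8.74 and 12.3 CPM). Gli1, a target of the pathway, fell from 7.64 and 6.67 to 2.37 and 2.75 CPM, while Ptch1, also a target, had 26.5 and 24.9 against 23.7 and 24.6 CPM (adjusted p = 0.80, edgeR). In the fit with a lane term Ptch1 was called higher, by 1.15.

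In the Notch pathway 10 of 17 members were lower and 2 higher (median -1.51). The target genes split, since Hes1 fell from 26.8 and 24.8 to 0.980 and 0.749 CPM (-4.89 ± 0.29) and Hey1 from 26.2 and 30.6 to 2.29 and 1.66 CPM (-3.84 ± 0.28), while Hey2 rose from 1.16 and 1.58 to 25.7 and 26.1 CPM (4.24 ± 0.29) and Heyl from 16.7 and 16.4 to 58.0 and 59.4 CPM (1.83 ± 0.20). Dll4, a ligand of endothelial tip cells, fell from 6.81 and 7.11 to 0.654 and 0.583 CPM, beside the lower endothelial markers above.

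TGF-beta family ligands, the 3 inhibin subunits included, changed in both directions, with 9 of 16 higher and 6 lower. Bmp3 rose from 0.232 and 0.198 to 88.7 and 113 CPM (8.83 ± 0.32) and Tgfb3 from 16 and 11.7 to 50.8 and 39.8 CPM. Gdf9 and Bmp15, growth factors of the oocyte, were higher as well, at 53.3 and 21.1 CPM and 4.82 and 1.66 CPM, in the same order of the P6w libraries as the oocyte markers. Without P6w replicate 1 the log2 fold change of Gdf9 was 2.44 in place of 3.27. Bmp7 (16.7 and 17.1 against 1.23 and 0.832 CPM), Tgfb2 (52.4 and 50.8 against 8.82 and 12.6 CPM) and Bmp4 were lower. Of 14 receptors 4 were higher (28.6%, beside 25.4% of all tested genes) and 5 lower (35.7%, beside 27.5%). With library totals alone, 2 were higher and 9 lower. The median log2 fold change of the 14 receptors was -0.45, beside a median difference of -0.377 between the E16.5 libraries on different lanes. Bmpr1b rose from 4.54 and 3.71 to 75.8 and 79.5 CPM (4.23 ± 0.25) and Bmpr2 from 59.7 and 62.7 to 397 and 460 CPM (2.81 ± 0.25), Tgfbr3 had a log2 fold change of 0.74 ± 0.22 whose call was lost with library totals alone (0.52) and without E12.5 replicate 1, P6w replicate 1 or P6w replicate 2, Acvr1c fell by 2.46 ± 0.37, and the endothelial receptors Eng and Acvrl1 fell by 1.92 ± 0.17 and 1.87 ± 0.22. Among inhibitors and targets, 4 of 14 were higher (28.6%) and 6 lower (42.9%), with Id4 falling from 11.3 and 10.9 to 0.572 and 1.41 CPM. The BMP target Id1 fell by 1.44 ± 0.37, a call not made by DESeq2 (adjusted p = 0.0533), and the decoy receptor gene Bambi by 2.58 ± 0.39. Chrdl1, a BMP antagonist, had 3 counts at E12.5 and 5.88 and 4.58 CPM at P6w, a ratio of 73.0 with a 95% counting interval from 24.4 to 359, not called with a lane term.

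Genes of the pathway of retinoic acid, the signal for meiosis in fetal germ cells, changed in both directions. Of 18 members 6 were higher and 9 lower. Aldh1a2, the enzyme that makes retinoic acid in the fetal mesonephros, fell from 94.9 and 96.5 to 18.2 and 19.7 CPM (-2.33 ± 0.13), and Aldh1a1 rose from 112 and 89.0 to 539 and 620 CPM (2.53 ± 0.20). Cyp26b1, which degrades it, fell from 12.6 and 14.9 to 0.735 and 1.33 CPM, and Cyp26a1 had 0.408 and 5.58 CPM in the P6w libraries. The call of Cyp26a1 was lost without P6w replicate 2 (log2 fold change 2.93) and with a lane term (5.13). The binding protein Crabp1 had 9.50 and 10.1 CPM at E12.5 and no count at P6w, a level at least 39.7-fold lower against a floor of 3 counts per library, while Crabp2 rose (27.1 and 29.7 against 76.9 and 76.7 CPM). The receptor gene Rarg rose from 6.39 and 7.36 to 58.7 and 49.5 CPM (2.98 ± 0.20) and Rarb fell from 4.45 and 5.48 to 0.163 and 0.583 CPM.

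Of 22 genes of the Hippo pathway, 13 were lower and 2 higher (median -0.64). Yap1 fell from 49.4 and 52.8 to 22.5 and 21.7 CPM (-1.21 ± 0.15), Tead1 by 1.45 ± 0.19, Tead4 by 4.08 ± 0.48 and Amot, which binds Yap, from 30.5 and 25.1 to 3.92 and 4.66 CPM (-2.70 ± 0.26). The target gene Cyr61 fell from 705 and 693 to 323 and 283 CPM, and the target Ctgf rose from 12.9 and 10.7 to 57.4 and 52.2 CPM (2.21 ± 0.17). The kinase genes Stk3, Stk4, Lats1 and Lats2 were not called, with log2 fold changes between -0.29 and 0.44.

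Of 36 genes of the cell cycle and DNA replication 7 were higher (19.4%, beside 25.4% of all tested genes) and 15 lower (41.7%, beside 27.5%), with a median of -0.17. Mki67 had 114 and 107 against 65.4 and 54.9 CPM (-0.88 ± 0.20, or -0.03 with a lane term), the replication helicase gene Mcm4 102 and 97.1 against 38.6 and 38.5 CPM, and the mitotic kinase gene Aurkb 53.0 and 61.6 against 106 and 101 CPM (0.85 ± 0.13). Cdk6 and the replication factor gene Cdc45 rose by 0.74 ± 0.12 and 0.70 ± 0.17, the latter not called with a lane term (0.40). D-type cyclins parted, as Ccnd1 fell from 138 and 147 to 16.4 and 17.1 CPM (-3.08 ± 0.13) and Ccnd2, the cyclin of granulosa cell growth, had 719 and 721 against 1065 and 990 CPM (0.51 ± 0.11), while Ccnd3 fell by 1.88 ± 0.16. In a fit with a lane term, 6 members in place of 15 were lower. Among 10 cell cycle inhibitors 3 were higher (30%) and 2 lower (20%), beside 25.4% and 27.5% of all tested genes. Cdkn2b had 0.926 and 0.642 against 5.31 and 9.41 CPM, Rbl2 was up by 0.74 ± 0.17, and Cdkn1b, which encodes p27, fell from 170 and 185 to 55.2 and 54.5 CPM. Of 39 apoptosis genes tested 11 were higher (28.2%) and 9 lower (23.1%), near the 25.4% and 27.5% of all tested genes. Those called held Bcl2 (63.3 and 61.8 against 16.6 and 12.7 CPM) and Bcl2l1 (121 and 147 against 336 and 268 CPM), both protective. Gadd45b and the death receptor adaptor gene Tradd rose by 1.24 ± 0.14 and 1.20 ± 0.18, and Mcl1 and Ripk1 fell by 0.97 ± 0.13 and 0.92 ± 0.17.

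Hox genes mark position along the body axis, and the mesonephros adjoins the fetal gonad. Of 39 Hox genes, 27 were tested, of which 16 were lower and none higher, with Hoxd9 at 62.0 and 54.8 against 7.60 and 9.99 CPM (-2.73 ± 0.18), Hoxa7 at 8.76 and 8.94 against 0.980 and 2.00 CPM, Hoxa9 at 4.86 and 6.87 against 0.245 and 0 CPM, and Hoxc6 at 37.8 and 35.6 against 33.3 and 34.0 CPM. Of 14 tested mesonephros genes 10 were lower (5 with a lane term) and 3 higher, and Pax8 of the mesonephric ducts fell from 20.4 and 26.2 to 0.572 and 0.25 CPM (-5.80 ± 0.33), while Gdnf rose from 2.50 and 1.43 to 12.3 and 12.6 CPM, Cited1 by 2.18 ± 0.29 and Osr2 by 0.57 ± 0.13. The GDNF receptor gene Ret had 4.77 and 6.23 CPM at E12.5 and 2 counts over both P6w libraries. Matrix genes were lower in the main, with 14 of 23 collagen chains lower and 5 higher. Col18a1 fell from 341 and 352 to 31.1 and 30.9 CPM (-3.48 ± 0.13) and Col4a1, the common basement membrane chain, from 210 CPM in both to 57.4 and 67.8 CPM, whereas Col4a4, a chain of a more specialised network, rose from 2.69 and 1.63 to 15.4 and 15.0 CPM. Col11a1 and Col4a6 rose by 2.29 ± 0.21 and 0.96 ± 0.23, and Col2a1 and Col12a1 fell by 5.53 ± 0.63 and 3.52 ± 0.22. Laminins moved in both directions among 16 basement membrane genes (4 higher, or 2 with a lane term, and 7 lower), with Lamb2 up by 1.55 ± 0.13 and Lamb1 down from 141 and 133 to 52.3 and 60.9 CPM. The median log2 fold change of the 16 genes was -0.227, beside a median difference of -0.327 between the E16.5 libraries on different lanes. Lamc3 and Lama1 rose by 1.08 ± 0.29 and 0.95 ± 0.16, the call of Lamc3 being lost without P6w replicate 1 (0.86) and with a lane term (1.02), while Nid1 (-2.45 ± 0.18), Nid2 (-2.32 ± 0.18) and the fibronectin gene Fn1 (-1.71 ± 0.16) fell.

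Of 23 genes of AMPK and fatty acid metabolism 15 were higher and 4 lower. Pparg, a nuclear receptor for fatty acids, had no count at E12.5 and 87.9 and 94.6 CPM at P6w, at least 635-fold higher against a floor of 3 counts per library. The fatty acid transporter gene Cd36 rose from 2.83 and 2.57 to 55.5 and 62.3 CPM (4.44 ± 0.25) and the desaturase gene Scd1 by 2.01 ± 0.29. The glucose transporter gene Slc2a4 and the nuclear receptor gene Ppara fell by 3.24 ± 0.39 and 1.31 ± 0.20. The adipocyte markers summed to 8.29 and 7.065 CPM at E12.5 and to 6.05 and 3.41 CPM at P6w. Of these, Adipoq stood at 0.163 and 0.0832 CPM and Lep at 0 in the P6w libraries, so that other members made up most of the sum. The 13 protein genes encoded in mitochondrial DNA, a group chosen after its values were seen, were all higher, with a median of 2.36, and took 1.51% and 1.39% of counts at E12.5 and 6.57% and 6.69% at P6w. COX1 alone had 6654 and 6088 against 38017 and 37041 CPM. In E16.5 replicates 1 and 2, on lanes 5 and 1, their share was 1.31% and 1.43%.

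The largest fitted changes, by a rule of at least 5 CPM in the higher group and no overlap, met by 7004 genes, reached beyond these lists. Non-overlap alone held for 80.4% of the tested genes. The fitted fold of a gene with few or no counts in one group is no bound, so that this order is not an order of measured size. Genes with counts in both groups, such as Hsd17b1 and Cyp19a1 among the rises and Cdkn1c and Igf2 among the falls, changed by more than the bounds of several genes named here. Beside Pparg, Grem1, Fshr and Inhba, the largest fitted rises were those of Cnmd, the gene of an antiangiogenic protein of cartilage (0.371 and 0.593 against 881 and 949 CPM, 10.88 ± 0.29), Serpina5, a serine protease inhibitor (1 count over both E12.5 libraries against 62.4 and 62.0 CPM, a ratio of 2602 with an interval from 466 to 102820), Phex, an endopeptidase of phosphate balance (0 against 11.7 and 12.1 CPM), Slfn4 (0 against 13.4 and 12.8 CPM) and Gm4926 (0 against 17.2 and 18.6 CPM). The bounds of the last 3 were at least 82.7-fold, 91.3-fold and 124-fold higher, and with a lane term Serpina5 (log2 fold change 7.69, edgeR adjusted p = 0.994) and Gm4926 (11.32, adjusted p = 1) kept their direction but were not called. Among the 10 largest fitted falls were the globins Hba-x (1900 and 1713 CPM against 0), Hbb-y (10184 and 9356 against 0.163 and 0 CPM) and Hbb-bh1, and Dct of pigment cells (15.6 and 16.8 CPM against 0, at least 65.5-fold lower). The others, Ifitm7, Mir3063, Ccdc182, Sall3, Pnliprp2 and Thsd7b, had between 10.0 and 16.4 CPM in the E12.5 libraries and no count at P6w. Mir3063 lies within an exon of Igf2bp1 on the same strand, and its reads cannot be told from those of that gene.

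The embryonic stages in between showed when the levels stood where they did. Inha had 238 and 254 CPM at E13.5 and 118 and 223 CPM at E16.5, and Cyp11a1 at most 3.49 CPM, so that the adult levels of both lay above every fetal library. Hmga2 was lower at each later stage, with 138 and 111 CPM at E13.5 and 43.0 and 38.1 CPM at E16.5. Igf2 (798 and 656 CPM at E16.5) and H19 (1910 and 1947 CPM at E16.5) were still at fetal levels. Against E16.5, P6w was lower by 6.84 in Igf2 (edgeR adjusted p = 1.35e-11) and by 2.96 in Hmga2 (edgeR adjusted p = 1.59e-09) on the log2 scale. Of the 12 Lin28 and let-7 list members 7 were already lower at E16.5 than at E12.5 and 2 higher, and of the 20 imprinted genes 6 were lower and 4 higher, beside 17.1% of all tested genes called lower at that stage and 20.5% called higher. Both comparisons share the E12.5 libraries.

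**Figure D5:**
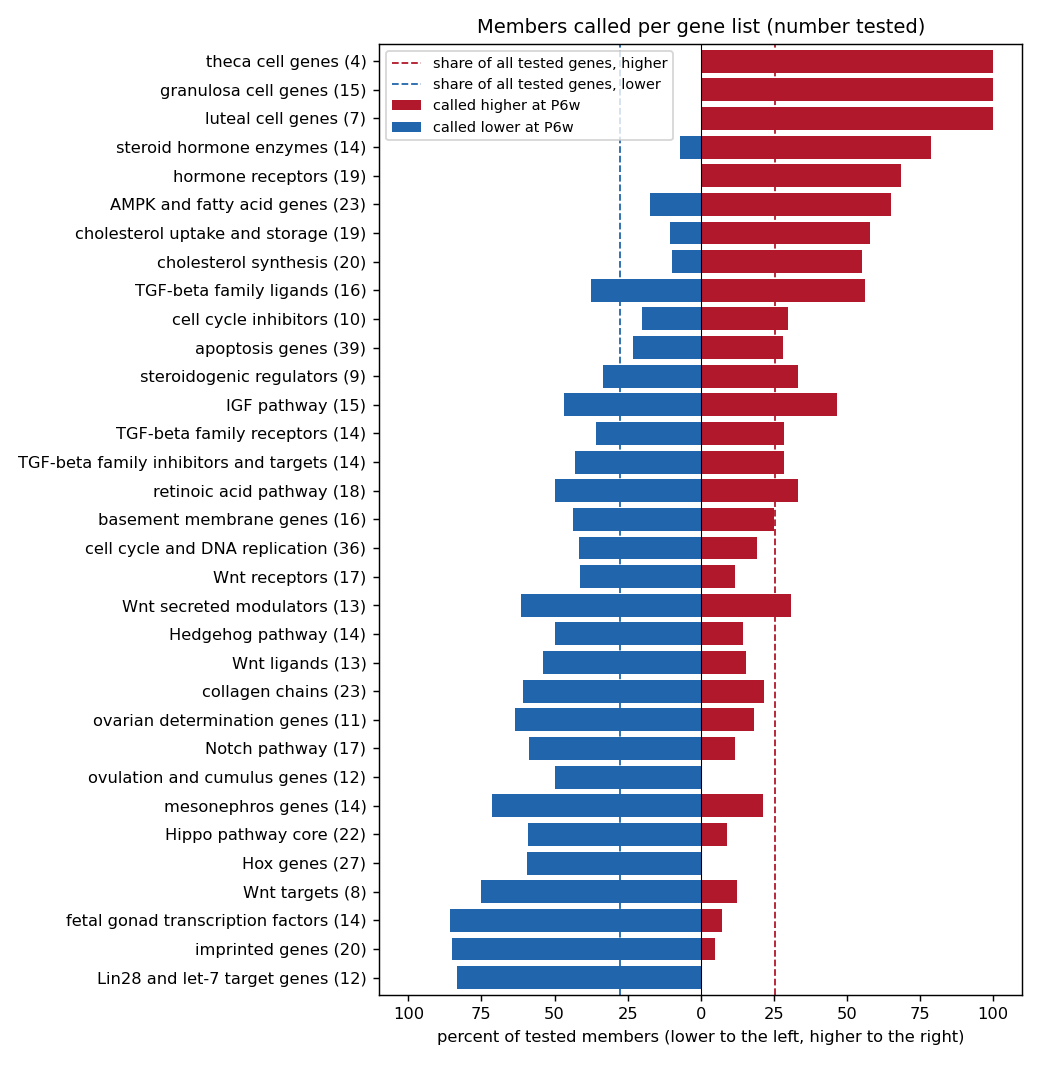
Percent of the tested members of each of 33 gene lists called higher at P6w (red, to the right) or lower (blue, to the left), with the number tested in brackets. Dashed lines mark the shares among all tested genes, 25.4% higher and 27.5% lower. Granulosa, luteal and theca genes were all higher, and the Lin28 and let-7, imprinted and fetal gonad lists each had over 80% lower.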

How the data were processed

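RNA of gonadal and ovarian somatic cells was selected by poly(A) and made into libraries with a kit that does not mark strand, so that genes overlapping on opposite strands cannot be told apart. The authors trimmed reads, aligned them to mm10 with HISAT2 and deposited a table of whole-number read counts per gene from featureCounts. Per the labels Trim Galore, FastQC, SAMtools and RSEM were also named. No versions are given in the sources used here. Tables of the authors' own comparisons were not used.

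From the 22173 genes, 571 had no count and 16398 passed edgeR's filter on low counts. The counts of 8 libraries (2 of P6w and 2 of each fetal stage) were scaled by TMM and fitted by stage with edgeR 4.0.16 (quasi-likelihood F test, R 4.3.3, limma 3.58.1), and P6w was compared with E12.5. Genes with a BH adjusted p below 0.05 were called. A gene without a count in 1 group was given a bound against 3 counts per library, and one with 1 to 3 counts a ratio with an exact 95% interval, both covering counting error only. On data simulated for this comparison (15891 genes tested), edgeR recovered 78 of 100 genes changed 2-fold and 100 of 100 changed 4-fold, with 13 false calls. The changed genes were few and drawn from those well above the floor, every gene had the same spread and no lane effect was added. These figures therefore do not cover genes near the floor, the many changes of the real data or the lane.

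The 33 gene lists and 19 marker lists were chosen with earlier results of these data known. Genes named were the 10 largest fitted rises and falls of at least 5 CPM without overlap, the 3 largest in each direction of each list, and further list members for their role. Some genes that this rule names are not reported here. Gene positions and exon lengths came from GENCODE vM21 (GRCm38). Promoters and microRNAs came from RefSeq (GRCm38.p6), where 9 of 12, 10 of 13 and 3 of 3 genes matched. Alternatives were other scalings, filters and tools, a lane term, a replicate block, and leaving out each library.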

Additional observations from a re-analysis of the deposited data

How the results depend on the processing

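The total of 8673 called genes ranged from 6600 to 6982 when a library was left out, the 4162 higher genes from 3077 to 3417 and the 4511 lower genes from 3465 to 3721. Those fits leave 1 library in a group, which is then assumed to vary like the other stages. A threshold of 2-fold left 4924 genes, 2253 higher and 2671 lower. With a lane term, estimable only from the E16.5 pair, 2616 genes were higher and 3233 lower. That pair differed more than the others, with a chi-square per degree of freedom between replicates of 37.9. The value was 6.02 at E12.5, 6.93 at E13.5 and 6.15 at P6w. DESeq2 called 8083 genes, a fit on the 4 libraries alone 9842. Library totals without TMM gave 33.9% of called genes higher in place of 48%. Replicate numbers did not pair the libraries (correlation of deviations -0.03 between E12.5 and P6w, from -0.07 to 0.12 over all stage pairs), and with a replicate block 8722 genes were called, 4183 higher and 4539 lower. Of 217 called genes named here, 205 kept their call and direction in every alternative other than the lane term and the 2-fold threshold, and 23 lost the call with the lane term (Acat2, Alb, Amh, Cdc45, Chrdl1, Creb1, Cyp26a1, Fshr, Gata6, Gm4926, Hsd17b3, Insl3, Lamc3, Lrp5, Mki67, Nr5a1, Oosp1, Ptgs1, Ptgs2, Serpina5, Sox10, Zp1 and Zp3). Ptch1 (1.15) changed sign with the lane term. The cause was not tested. With the lane term, 5 of 13 Wnt modulators, 5 of 14 mesonephros genes, 6 of 36 cell cycle genes and 1 of 8 liver markers were lower, and 5 of 10 oocyte markers higher. With library totals alone, 2 TGF-beta family receptors were higher and 9 lower. Without P6w replicate 1, the log2 fold change of Amh was 2.86 and that of Gdf9 2.44. For genes at or under 3 counts in a group, depth limits the fold to a bound or a wide counting interval.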
